A study of Mus musculus with 3 samples.

Results

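CTCF occupancy in LSK cells was examined at the 4 genes that encode core-binding factor, Runx1, Runx2, Runx3 and Cbfb, among 21755 protein-coding genes of Chromosomes 1 to 19 and X. The members were the CTCF peaks that overlapped the body of 1 of these genes or its flanks of 200 kb on either side, and 30 of the 18945 peaks in the deposited list qualified. The list came from 1 ChIP-seq library of LSK cells (Lin-, Sca1+, cKit+), sorted from the bone marrow of adult male C57BL6 animals, with no transgene, deletion or treatment named. The sort required cKit and Sca1 and removed cells with CD4, CD8, IL7Ra, CD11b, Ly6g, CD45R or Ter119, and LSK cells are a mixture of stem cells and multipotent progenitors. The library had no replicate, so no p-value was calculated between genes or conditions, and the LSK input and a second input, from megakaryocyte erythroid progenitors, were not analyzed here. No expression was measured in these data, so the sort was not checked against marker genes.

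Core-binding factor is a dimer of a DNA-binding RUNX protein and CBFB, which does not bind DNA itself but strengthens the binding of its partner. Runx1 is required for the emergence of blood stem cells in the embryo, Runx2 is the master regulator of bone-forming cells, and Runx3 acts in cytotoxic T cells and sensory neurons. Each Runx gene is transcribed from a distal promoter, P1, and a proximal promoter, P2, far downstream of it, and these give proteins with different amino termini. CTCF is a zinc finger protein that, with cohesin, anchors chromatin loops and bounds domains, and the strand of its motif sets the direction in which a loop can be anchored.

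Each of the 3 Runx genes had exactly 1 peak in its body, and in each gene it lay in the intron between P1 and P2, close to P2 and upstream of it. For Runx3, P2 rests on 1 coding transcript without a CCDS tag, and with promoters taken from CCDS transcripts alone Runx3 had no P2, so that the arrangement was then seen in Runx1 and Runx2 only. The central 200 bases of these peaks are printed because they carry the shared feature of the family. They were read from mm10 (GRCm38.p6) along the strand of the gene, 5′ to 3′, and the capitals mark the site nearest to the peak midpoint that matched the CTCF core motif at 11 of 12 positions. All 3 sites lay on the strand opposite to the gene, so the motif appears here as its reverse complement. In Runx3, an equally good site farther from the midpoint lay on the strand of the gene.
Runx1, chr16:92698718-92698917, minus strand: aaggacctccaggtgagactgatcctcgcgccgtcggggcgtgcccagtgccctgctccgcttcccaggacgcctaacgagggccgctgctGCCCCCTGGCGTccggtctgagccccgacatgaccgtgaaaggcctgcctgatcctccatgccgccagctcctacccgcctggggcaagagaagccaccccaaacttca
Runx2, chr17:44743936-44744135, minus strand: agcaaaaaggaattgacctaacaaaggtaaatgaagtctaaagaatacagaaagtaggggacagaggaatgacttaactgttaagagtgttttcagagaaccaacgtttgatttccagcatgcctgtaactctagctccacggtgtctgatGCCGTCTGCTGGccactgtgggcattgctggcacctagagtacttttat
Runx3, chr4:135150536-135150735, plus strand: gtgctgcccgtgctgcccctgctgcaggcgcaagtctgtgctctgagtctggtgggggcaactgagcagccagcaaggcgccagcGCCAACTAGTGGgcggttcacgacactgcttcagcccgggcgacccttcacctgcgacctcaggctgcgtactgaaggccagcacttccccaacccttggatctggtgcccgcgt

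The peaks differed in strength. Fold enrichment, the authors' linear ratio of reads in the peak over background, had a median of 10.1 over all peaks, with the middle 50% between 7.83 and 13.4. The peak in Runx1 (chr16:92698406-92699228, 823 bp) was enriched 12.07-fold at a −log10 p-value of 15.895, and 65.0% of all peaks were lower in fold. The peak in Runx2 (chr17:44743830-44744240, 411 bp) was the weakest of the 3, enriched 8.48-fold at a −log10 p-value of 8.957. The peak in Runx3 (chr4:135150223-135151047, 825 bp) was the strongest, enriched 21.54-fold at a −log10 p-value of 36.331, above 97.6% of all peaks in fold. The median −log10 p-value over all peaks was 12.6, so that the Runx1 and Runx3 peaks were above it and the Runx2 peak below it. The Runx2 peak was absent from each of 3 stricter peak sets, and the Runx1 peak from 1 of them, the 9472 peaks with the lowest false discovery rates.

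All 3 peaks lay near the downstream end of the stretch between the promoters. In Runx1 (chr16:92601466-92826149, minus strand), P1 was at 92826149 and P2 at 92697328, 128821 bp apart, and the near edge of the peak was 1078 bp upstream of P2, with its midpoint at 98.8% of the way from P1. In Runx2 (chr17:44495987-44814797, minus strand), P1 was at 44814797 and P2 at 44736648, 78149 bp apart, and the near edge of the peak was 7182 bp upstream of P2, with its midpoint at 90.5% of the way. Its promoters were closer together than those of Runx1. In Runx3 (chr4:135120652-135177990, plus strand), P1 was at 135120652 and P2 at 135152496, 31844 bp apart, and the near edge of the peak was 1449 bp upstream of P2, with its midpoint at 94.2% of the way. The promoters were thus spaced differently in each gene, while the peak lay within 10 kb of P2 in all 3. By the transcript records, the peak was in intron 1 or 2 of the P1 transcripts of Runx1 and Runx2 and in intron 1 of those of Runx3.

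The same measures were taken over the 2212 protein-coding genes with promoters at least 10 kb apart. A peak anywhere between P1 and P2 was present in 33.0% of them, and exactly 1 peak in 22.1%. A peak up to 10 kb upstream of P2, as in all 3 Runx genes, was present in 11.0%, and a peak up to 10 kb downstream of P2, as in no Runx gene, in 12.5%. The share with exactly 1 peak between the promoters that was also within 10 kb of P2 was 7.23% (160 genes). The median distance from P2 to the nearest upstream peak was 59.9 kb, with the middle 50% between 23.6 and 158 kb, and the values of the 3 Runx genes were below this range. The distances of 10 kb were chosen after the Runx peaks had been seen, so these shares describe how common the arrangement was and test nothing. Promoters at least 30 kb apart, as in all 3 Runx genes, were found in 1068 genes. Among these, the share with a peak up to 10 kb upstream of P2 was again 11.0%. A peak anywhere between the promoters was more common there, present in 45.3%, and exactly 1 peak in 26.2%.

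**Figure D1:**
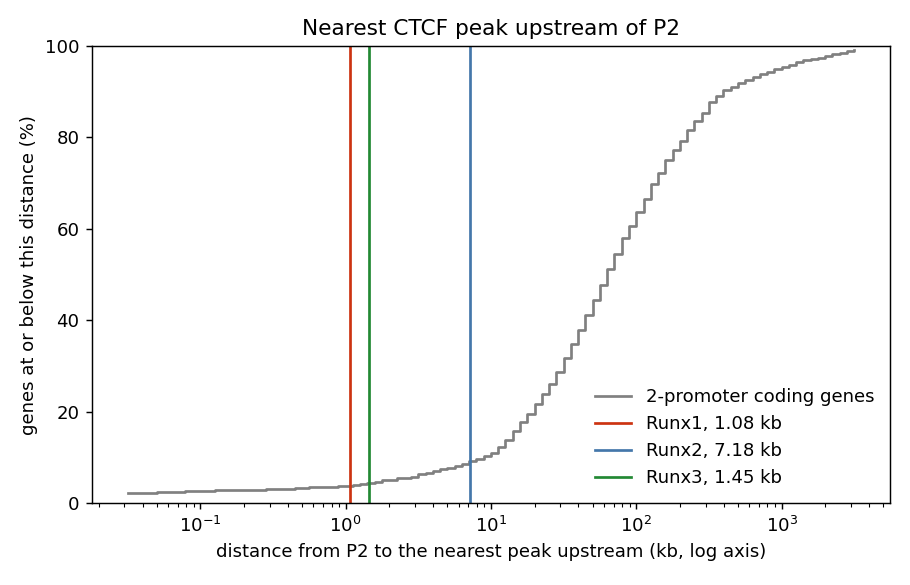
Cumulative share of the 2212 coding genes with promoters at least 10 kb apart (y axis, %) by the distance from P2 to the nearest CTCF peak upstream (x axis, kb, log scale), with vertical lines at the Runx genes. Runx1 at 1.08 kb, Runx3 at 1.45 kb and Runx2 at 7.18 kb all lie to the left of the steep part of the curve, whose median is 59.9 kb.

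The promoters themselves differed in sequence. In the 1 kb centered on each start, the ratio of observed to expected CpG was 0.31 at Runx1 P1 and 0.86 at P2, 0.16 at Runx2 P1 and 0.91 at P2, and 0.36 at Runx3 P1 and 0.95 at P2. P2 was therefore CpG-rich in all 3 genes, as a CpG island promoter is, and P1 was not. The single Cbfb promoter, at 105170674 on Chromosome 8, was also CpG-rich, with a ratio of 0.93. The peaks near P2 were not alike in this respect. Their ratios were 0.58 in Runx1, 0.24 in Runx2 and 0.57 in Runx3, where the median over all peaks was 0.25. The Runx2 peak was also the one with the largest share of repeat-masked bases, 33.1%, compared with 2.31% in Runx1 and 0.485% in Runx3.

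Where several sites of a peak matched equally well, as in Runx3, the one nearest to the midpoint was taken. The short distance from the Runx3 site to the midpoint therefore follows in part from that choice. The Runx1 site, at 92698815 to 92698826, lay 4 bp from the peak midpoint and 1492 bp from P2. The Runx3 site, at 135150621 to 135150632, lay 8 bp from the midpoint and 1870 bp from P2. The Runx2 site, at 44743973 to 44743984, lay 56 bp from the midpoint and 7330 bp from P2. Runx3 had further sites with 11 matches at the edge of its peak, at 135151018 to 135151029 on the strand opposite to the gene and at 135151019 to 135151030 on the same strand, so its orientation was not unique. Over all such genes, 177 had a peak up to 10 kb upstream of P2 whose best sites, of at least 11 matches, were on 1 strand. In 52.5% of these genes, that motif was on the strand opposite to the gene.

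The 4 genes differed widely in the number of peaks around them. Within the body and 200 kb flanks, Runx2 had 1 peak, Runx1 had 6, Cbfb had 8 and Runx3 had 15. Over all protein-coding genes the median was 6, with the middle 50% between 3 and 9. At most 1 peak, as for Runx2, was found for 16.5% of genes, and as many as around Runx3 or more for 6.71%. Since the windows differ in length, the density was also calculated. It was 1.39 peaks per Mb around Runx2, 9.6 around Runx1, 17.9 around Cbfb and 32.8 around Runx3. The median over all genes was 12.4, with the middle 50% between 5.53 and 21.9, and the genome held 7.19. By density, Runx2 was below this middle range, Runx3 above it, and Runx1 and Cbfb within it. The order of the genes was the same by number and by density.

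**Figure D2:**
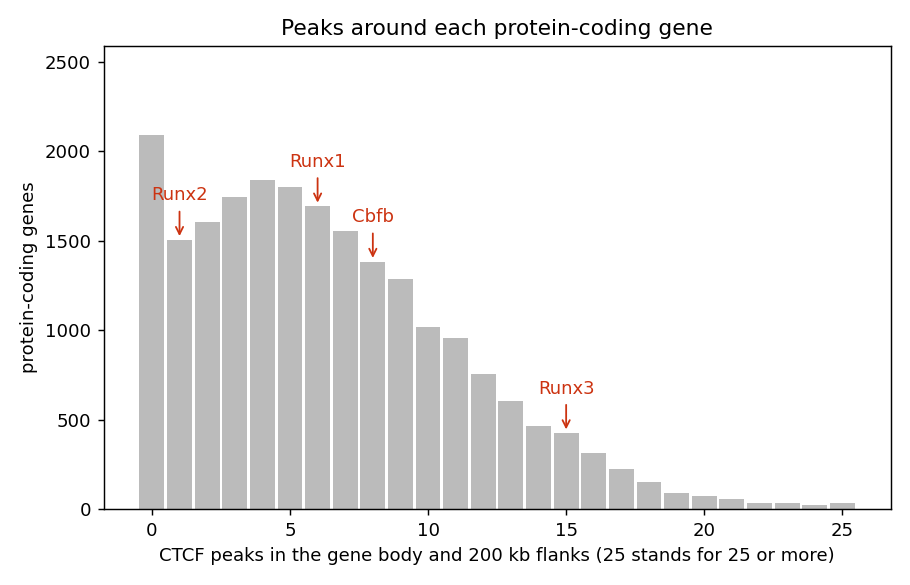
Number of protein-coding genes (y axis) by the number of LSK CTCF peaks in the gene body and 200 kb flanks (x axis), with arrows at the 4 genes. Runx2, with 1 peak, stands near the lower end, Runx1 (6) and Cbfb (8) near the middle and Runx3 (15) in the upper tail.

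All 4 genes had a peak that touched the gene body, compared with 30.0% of all coding genes. The 4 genes are long, from 47.3 to 319 kb, and among the 6101 coding genes of at least 40 kb the share was 53.9%, with exactly 1 peak in 28.2%. The limit of 40 kb was chosen after the data were seen. Runx1 and Runx2, with 225 and 319 kb, are far longer than that limit, so this background is not matched to them. Per Mb of gene body, there were 4.45 peaks in Runx1, 3.14 in Runx2, 17.4 in Runx3 and 21.1 in Cbfb. The genome held 7.19 per Mb. Runx2 thus had no more peaks in its body than Cbfb with 47.3 kb.

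**Figure D3:**
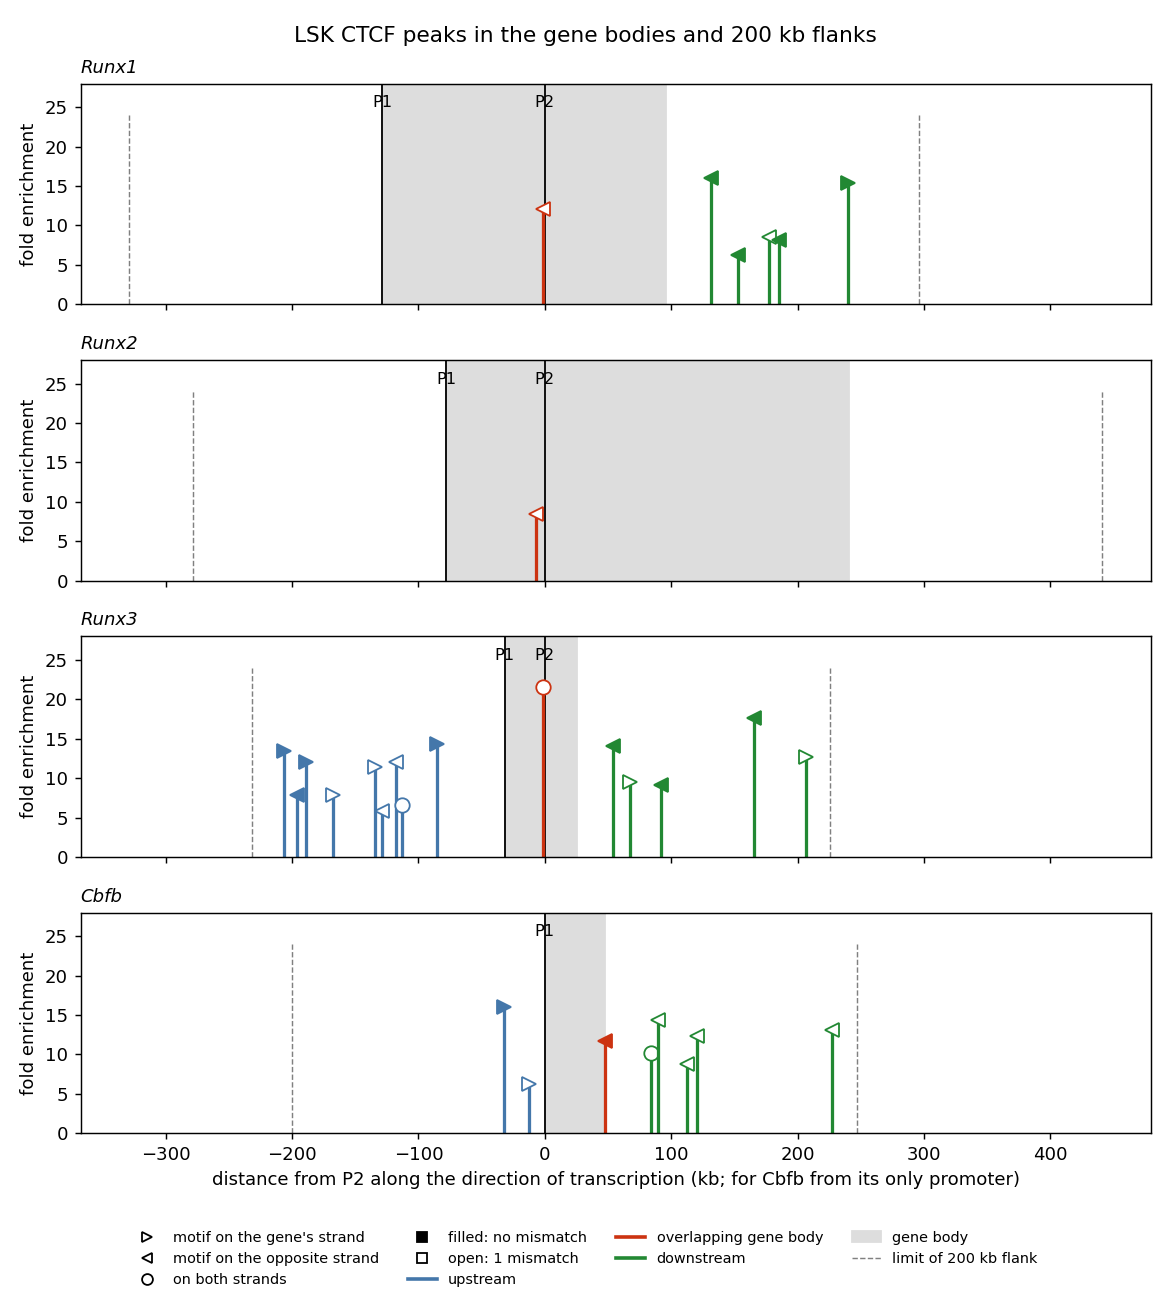
LSK CTCF peaks around Runx1, Runx2, Runx3 and Cbfb, with distance from P2 along the direction of transcription in kb (x axis; for Cbfb from its only promoter) and fold enrichment (y axis); gray marks the gene body, dashed lines the limits of the flanks, and the symbol the strand of the motif. In each Runx gene the single peak of the body (red) stands just left of P2, Runx1 and Runx2 have no peak in the upstream flank, and Runx3 has 9.

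Runx1 (ENSMUSG00000022952.17) lay beside a long stretch free of peaks. No peak was found in the 200 kb upstream of P1, and the nearest one upstream was 467 kb away with a fold enrichment of 9.14. The peaks on either side of P1 were 594 kb apart, wider than for 82.2% of coding genes, compared with 132 kb around P2, which was at the median. All 5 flanking peaks were downstream of the gene. The nearest, at chr16:92565457-92566253, was 35213 bp past the 3′ end and the strongest of the locus, with a fold enrichment of 15.99. Next were a weak intergenic peak of 6.2 and 2 peaks of 8.48 and 8.16 in introns of Clic6, which encodes a member of the chloride intracellular channel family. The last, of 15.34 at chr16:92457471-92458281, lay in an exon of Gm46555. It was also in the body of Rcan1, 12586 bp from the 5′ end of that gene, which encodes an inhibitor of calcineurin. Of these 5, 4 had the motif without a mismatch. The sites of the strongest and the last are printed with 9 bases on either side because they lay on opposite strands. The first was on the plus strand, against Runx1, and the second on the minus strand, as Runx1. Both lay downstream of the gene and pointed away from each other, and loops were not measured.
Runx1, peak 35213 bp past the gene, site at chr16:92565871-92565882, plus strand: tcaggacaaCCTCCAGGGGGCagcagacca
Runx1, peak near Rcan1, site at chr16:92457849-92457860, minus strand: tctccttggCCTGCAGATGGCgccttctta

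Runx2 (ENSMUSG00000039153.16) was nearly empty of peaks. Apart from the peak upstream of P2, none was found in the 719 kb of the window. Beyond the window, the nearest peak downstream was 234 kb past the gene with a fold enrichment of 5.87. The nearest upstream was 436 kb from P1 with 15.34. The peaks on either side of P2 were 482 kb apart, wider than for 80.2% of coding genes. Supt3, which encodes a subunit of a histone acetyltransferase complex, overlaps Runx2 on the other strand and spans 342 kb without any peak in its body. The 5′ end of Supt3 was 32.9 kb from the peak in Runx2, which was the nearest to it. The peak in Runx2 was therefore the nearest peak of both genes, and it was of less than median strength.

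Runx3 (ENSMUSG00000070691.10) had peaks on every side. Its upstream flank held 9 peaks with fold enrichments from 5.87 to 14.36, all intergenic by their midpoints, and Syf2, which encodes a splicing factor, was the coding gene nearest to the 6 most distant of them. The one nearest to P1, at chr4:135066507-135067706, was 52946 bp upstream, was 1200 bp wide where the middle 50% of all peaks was between 636 and 779 bp, and had the highest −log10 p-value of the 4 loci, 43.428. Downstream of the gene were 5 peaks. The first, at chr4:135206128-135206940, was 28138 bp past the 3′ end with a fold enrichment of 14.03. Fold enrichments of 9.46 and 9.14 were found in introns of Clic4, a further gene of the chloride intracellular channel family, and 17.62 and 12.73 near Srrm1, which encodes a splicing coactivator. The peaks on either side of P2 were 55.1 kb apart, narrower than for most coding genes (23.2nd percentile). The sites of the nearest strong peaks on either side are printed because their motifs, both without a mismatch, lay on opposite strands. Unlike the pair printed for Runx1, these pointed toward each other, with the gene between them.
Runx3, peak 52946 bp upstream of P1, site at chr4:135066920-135066931, plus strand: ccgtcatcgCCACTAGGGGGCggccgggct
Runx3, peak 28138 bp past the gene, site at chr4:135206518-135206529, minus strand: tccaaacagCCGGCAGAGGGCgcaggcgac

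Cbfb (ENSMUSG00000031885.14, chr8:105170674-105217989, plus strand) differed from the Runx genes in having 1 promoter and no peak inside the gene. Its only peak of the body, at chr8:105217682-105218447, crossed the 3′ end of the gene, had its midpoint beyond it, and had a fold enrichment of 11.75. The nearest peak to the promoter was 12612 bp upstream with a fold enrichment of 6.2, and a stronger one, of 15.99, was 31851 bp upstream in an intron of Ces4a, a carboxylesterase gene. The peaks on either side of the promoter were 59.6 kb apart. Cbfb lies among 22 coding genes in its window, itself included, compared with 2 for Runx2, 3 for Runx1 and 6 for Runx3. Downstream, 5 peaks followed, with fold enrichments from 8.81 to 14.36. They lay in exons of B3gnt9 (10.12, the peak 551 bp from its 5′ end), Tradd (14.36), 4931428F04Rik (8.81) and Gm20163 (12.4), and in an intron of Kctd19 (13.05). TRADD is an adaptor of tumor necrosis factor receptors, and B3GNT9 is by its name a glycosyltransferase. D230025D16Rik was the coding gene whose 5′ end was nearest to the peak across the 3′ end, at 6698 bp. The motifs of the peak in Ces4a and of the peak across the 3′ end were both without a mismatch. They lay on either side of the Cbfb promoter, on opposite strands, and pointed toward each other.
Cbfb, peak in Ces4a, site at chr8:105138560-105138571, plus strand: cagacactcCCTGCAGAGGGCgctccaagg
Cbfb, peak across the 3′ end, site at chr8:105218085-105218096, minus strand: aagatatgaCCACTAGATGGCactgttgtt

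The limit of 200 kb decided which peaks were counted. The outermost peaks inside it were 143 kb downstream of Runx1, 174 kb upstream and 180 kb downstream of Runx3, and 31.9 kb upstream and 180 kb downstream of Cbfb. The first peaks beyond it were 216 kb downstream of Runx1 (fold enrichment 12.4), 207 kb upstream and 204 kb downstream of Runx3 (15.34 and 23.17), and 380 kb upstream and 223 kb downstream of Cbfb (10.12 and 9.14). The peak just beyond the downstream limit of Runx3 (23.17) was stronger than any within its window, and the one just beyond the upstream limit (15.34) was not.

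**Figure D4:**
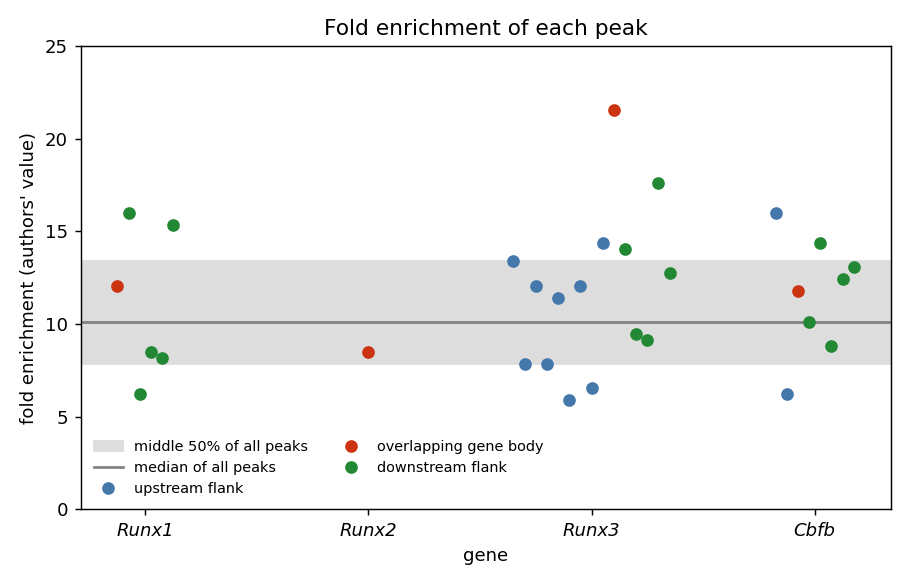
Fold enrichment (y axis, the authors' linear ratio) of each of the 30 peaks by gene (x axis), colored by its place, with the median (10.1) and middle 50% of all 18945 peaks in gray. The peak of the Runx3 body, at 21.54, is the highest of the 30, and those of Runx1 (12.07), Cbfb (11.75) and Runx2 (8.48) lie within the gray band.

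Most peaks carried the CTCF core motif in full or nearly so. The motif, searched on both strands over the whole peak, was matched at all 12 positions in 13 of the 30 peaks (43.3%, exact 95% interval 25.5% to 62.6%), compared with 35.6% of all peaks, which is within the interval. It was present in full in 4 of 6 peaks at Runx1, 7 of 15 at Runx3, 2 of 8 at Cbfb and 0 of 1 at Runx2. None of the 3 peaks near P2 had it in full. With 1 mismatch allowed, all 30 peaks held it (interval 88.4% to 100%), compared with 83.6% of all peaks, which is below the interval. This difference was not tested. The intervals are Clopper-Pearson intervals that cover counting error only, and peaks of 1 locus may not be independent. How often sequences outside peaks match with 1 mismatch was not calculated. Such sites, including those of the 3 peaks near P2, are therefore sequence matches only.

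The strand of the best site was set against the strand of the gene. Sites on both strands were equally good in 3 peaks, 2 at Runx3 and 1 at Cbfb, which were left out. Upstream of the genes, 7 of 10 peaks had the motif on the same strand as the gene, all of them at Runx3 and Cbfb. Downstream, 11 of 14 had it on the opposite strand, 4 of 5 at Runx1, 3 of 5 at Runx3 and 4 of 4 at Cbfb. With the genes pooled, the more common strand in both flanks was the one on which the motif points toward the gene. Upstream, the 2 peaks at Cbfb were both on that strand, the 3 on the other strand were all at Runx3, and Runx1 and Runx2 had no peak. Over all coding genes, 48.4% of upstream peaks were on the same strand and 47.6% of downstream peaks on the opposite strand. The peaks of a flank also lie around other genes, so these counts are a description of the loci.

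The RUNX motif was searched as TGTGGT on either strand, to see whether the peaks at the genes of the family held the site that the family recognizes. It was present in 16 of the 30 peaks (53.3%, exact 95% interval 34.3% to 71.7%), compared with 43.8% of all peaks, which lies within the interval. This interval too covers counting error only, and peaks of the same locus may not be independent, so the difference was not tested. The peaks near P2 held it in Runx2 and Runx3 and not in Runx1. A match of this short motif is no evidence of binding, which was not measured here.

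Genes that work with the family were taken from a pair of lists. Of 24 genes for partners and cofactors of RUNX proteins, 16 (66.7%) had a peak within 50 kb of the 5′ end, compared with 67.7% of all coding genes, and 8 (33.3%) within 10 kb, compared with 29.3%. Both shares were near the background. The highest fold enrichments within 10 kb were at Prmt1, an arginine methyltransferase (27.41, 2877 bp away), and Elf4, an ETS factor (14.68, across the 5′ end). Next were Cbfa2t3, a corepressor of the ETO family (10.77, 1268 bp), and Kat6a, a histone acetyltransferase (9.46, 9704 bp). Crebbp, a coactivator, had its nearest peak at 53867 bp, and Runx1t1, the ETO gene that is fused to RUNX1 in leukemia, at 644001 bp.

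Of 22 genes known as RUNX targets, 19 (86.4%) had a peak within 50 kb of the 5′ end and 6 (27.3%) within 10 kb, where the shares over all coding genes were those given above. The larger share was thus seen at 50 kb and not at 10 kb, and the median distance was 15.4 kb for the targets and 29.4 kb for the partners, compared with 24.2 kb over all coding genes. Il3 and Csf2 are neighbors, as are Spp1 and Ibsp, so the targets are not all independent. The highest fold enrichments within 10 kb were at the cytokine gene Il3 (20.23, 2070 bp away) and at Zbtb7b, which encodes the factor that directs CD4 T cells (15.01, 1367 bp). Next were Cdkn1a, an inhibitor of the cell cycle (12.73, 4427 bp), and Elane, the neutrophil elastase gene (9.14, 2012 bp). Foxp3, the regulator of regulatory T cells, and Gfi1, a repressor in stem and myeloid cells, had no peak within 50 kb, with the nearest at 106013 and 114204 bp.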

How the data were processed

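CTCF ChIP-seq peaks of 1 LSK library were analyzed. The authors mapped reads to mm10 with Bowtie, version 1.0.0 in the submitters' processing notes but an earlier version in the paper's supplement. They allowed multiply mapping reads, removed reads on ChrM and unplaced chromosomes, and called peaks with MACS. The MACS settings and control are not stated in the sources used here. The deposited list has no header. Its fold enrichment (a linear ratio), −log10 p-value and false discovery rate (of unstated scale, used only for ranking) were used as the authors gave them, and starts were read as 0-based and printed 1-based. Read depth is not in the list, so no depth is given.

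Genes and transcripts came from GENCODE M21 and sequences from GRCm38.p6. Promoters were clusters of 5′ ends less than 2 kb apart, from coding transcripts with a complete 5′ coding end. P1 was the most upstream, and P2 the other cluster with the most CCDS transcripts. Peaks counted with at least 1 base of overlap, and distances ran to the nearest edge. Percentages over all genes or peaks are descriptions, and no test was run. The members and lists were chosen with earlier results of these data known. Named were the 4 genes, coding genes nearest to their peaks, and in each list up to 4 genes with the strongest peaks within 10 kb and up to 2 without a peak within 50 kb. Python 3.11.15, numpy 2.4.6, pandas 2.3.3, scipy 1.17.1, pysam 0.24.0 and matplotlib 3.10.9 were used, and the steps were tested on simulated data. Alternatives were stricter peak sets, other flanks, distances, motif settings and promoter definitions.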

Additional observations from a re-analysis of the deposited data

How the results depend on the processing

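Of 84 values recomputed under alternatives, 49 stayed within 1.5 times the reported value (for the motif share, within its interval) and 35 did not. With flanks of 500 kb, the peaks around Runx1, Runx2, Runx3 and Cbfb numbered 13, 7, 31 and 23, and with flanks of 100 kb those around Runx3 numbered 8. Keeping only the 9472 peaks of lowest false discovery rate left 2, 0, 8 and 4 around the 4 genes, with 0 in the bodies of Runx1 and Runx2. The nearest peak was then 259896 bp from Runx1 P1, 131075 bp from Runx1 P2, 436463 bp from Runx2 P1, 514612 bp from Runx2 P2 and 31851 bp from the Cbfb promoter. This rate does not fall strictly with the −log10 p-value, so the same number of peaks with the highest −log10 p-values was tried after seeing the data. It left 3, 0, 9 and 5 peaks, kept the body peaks of Runx1 and Runx3 (1078 and 1449 bp from P2), and left 0 in Runx2, with the same distances for Runx2 (436463 and 514612 bp) and Cbfb (31851 bp). At or above the median fold enrichment, 3, 0 and 9 peaks were left around Runx1, Runx2 and Runx3, and 0 in the Runx2 body. The peak between the Runx2 promoters was thus in none of the 3 stricter sets. By midpoints, the Cbfb body held 0 peaks. With 1 mismatch, the motif share was 100%. At 10 kb, 8 partners and 6 targets had a peak, and at 1 kb, 1 partner and 0 targets. A peak up to 2 kb upstream of P2, as in Runx1 and Runx3 but not in Runx2, was present in 5.15% of genes. This distance was also chosen after seeing the data. Transcripts with a CCDS tag gave no P2 for Runx3. No paired analysis was possible because 1 library had a file and no groups were compared. With 1 library, no replicate could be left out.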

Other observations

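The genes beside the 3 Runx genes are themselves related, with a gene of the CLIC family (chloride intracellular channels) and one of the RCAN family (regulators of calcineurin) at each locus. Clic5, Rcan2 and Rcan3 were chosen after the values were seen. Clic6, 60.2 kb from Runx1, had 2 peaks in its body, with fold enrichments of 8.16 and 8.48. Clic5, 216 kb from Runx2, had 2 peaks between 5.87 and 9.79, and Clic4, 36.0 kb from Runx3, had 2 of 9.14 and 9.46. The 3 CLIC genes thus had the same number of peaks, and none of these peaks was above the median fold enrichment of 10.1. The genes differ in length, with 55.5 kb for Clic6, 91.6 kb for Clic5 and 58.8 kb for Clic4. Clic5 lies beyond the 200 kb flank of Runx2, so the density given for Runx2 does not cover it. The share of other genes with 2 peaks was not calculated, so the equal counts are a description only.

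The RCAN genes were less alike. Rcan1, 131 kb from Runx1, had 1 peak in its body, of 15.34. Rcan2, 456 kb from Runx2, had 4 between 5.87 and 11.42, one of them across its 5′ end. Rcan3, 234 kb from Runx3, had none, and its nearest peak was 21.6 kb from its 5′ end, with a fold enrichment of 18.6.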
